A study of Homo sapiens with 12 samples.

Results

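The genes described here carry, receive or report signals of the transforming growth factor beta (TGF-beta) family. They are 45 genes chosen by symbol, and each symbol matched 1 Ensembl identifier among the 59248 rows of the deposited gene tables. In that list are 9 ligand genes, the protease gene BMP1, 4 latent binding proteins, 12 receptors, 8 SMADs, 2 SMAD corepressors, 4 target genes and 5 antagonists or follistatin-like proteins. Expression was compared between 6 libraries of SJSA-1 cells that stably expressed RUNX2 shRNA-1 (sh1) and 6 libraries of SJSA-1 cells that stably expressed a scramble shRNA (shNC). SJSA-1 is an established human osteosarcoma line. Both groups carried a puromycin-selected lentiviral vector that also expresses EGFP from a ubiquitin promoter, and both were grown in medium with newborn calf serum, itself a source of TGF-beta family proteins that RNA sequencing does not measure. A single shRNA against RUNX2 is set against a single control, and no source states whether the 6 libraries of a group are separate cultures. Every p-value therefore sets a difference against the spread of these libraries, and that spread may be technical.

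In this pathway, dimeric ligands (TGF-betas, activins and bone morphogenetic proteins, BMPs) bind pairs of type II and type I serine/threonine kinase receptors. The type I receptor phosphorylates receptor-activated SMADs, SMAD2 and SMAD3 for TGF-beta and activin, SMAD1, SMAD5 and SMAD9 for BMPs, which join SMAD4 and act on genes in the nucleus, while SMAD6 and SMAD7 inhibit the pathway. In bone, TGF-beta is stored in the matrix in a latent form bound to LTBP proteins, BMPs drive osteoblast differentiation, and RUNX2 works together with receptor-activated SMADs.

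The total gene count ranged from 11239638 to 16346022 in sh1 and from 15328312 to 19992974 in shNC. The library sh1 replicate 3 stood apart from the other sh1 libraries, with the lowest total and 1.23% of its counts in rows that carry no Ensembl number (0.468% to 0.531% in the others). Values in CPM are gene counts scaled to library size with TMM factors, and in bulk samples fewer cells of a type and less RNA per cell cannot be told apart. RUNX2, the targeted gene, was at 21.6 to 27.4 CPM (median 24.8) in the sh1 libraries, against 35.5 to 46.2 CPM (median 37.7) in the shNC libraries, without overlap (log2 fold change -0.69, standard error 0.076, adjusted p = 4.6e-06 from edgeR; exact two-sided permutation p = 0.0022, the smallest that 6 libraries against 6 allow). Among markers of the line, MDM2, which is amplified in SJSA-1, was at 1125 ± 112 CPM in sh1 and 912 ± 83.4 CPM in shNC (SD, n = 6 each) and SPARC at 2286 ± 201 CPM in sh1 and 1446 ± 90.0 CPM in shNC, while SP7, ALPL, IBSP and BGLAP, markers of maturing osteoblasts, had 0 to 3 counts over the 6 sh1 libraries and 0 to 10 over the 6 shNC libraries. Other genes of the same marker list were expressed, SPP1 at 5.69 ± 1.37 CPM in sh1 and 6.47 ± 0.809 CPM in shNC and COL1A1 at 16.3 ± 3.99 CPM in sh1 and 5.83 ± 1.81 CPM in shNC. None of 8 blood cell markers had enough counts to be tested.

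Most of the signalling genes differed between the groups, and more of them were higher than lower in sh1. Of the 45 genes, 43 had enough counts to be tested, 19 rose, 9 fell and 15 did not pass (adjusted p under 0.05 from edgeR's quasi-likelihood test, Benjamini-Hochberg adjustment over all 16489 genes tested). That is 65.1% of those tested, beside 26.1% of all genes tested (12.8% higher and 13.3% lower in sh1). The 45 genes were chosen with earlier results of these data known, so this excess is not an unbiased test. Among genes with a mean of at least 5 CPM, where calls are more frequent, 26 of 40 signalling genes and 30.5% of all genes were called. Over all 43 signalling genes tested, the median log2 fold change, sh1 over shNC, was 0.18 and the median absolute change 0.33, beside -0.0035 and 0.16 over all 16489 genes. Most changes were below 2-fold, and 3 genes (TGFB2 higher, FST and INHBB lower) reached an absolute log2 fold change of 1, beside 2.09% of all genes tested. In 14 of the 43, 9 higher and 5 lower, all sh1 libraries lay on one side of all shNC libraries, beside 11.9% of all genes. INHBB is among these 5 and the 3 above, but it had few counts. It met the count filter through shNC, the group where it was higher. Without sh1 replicate 3 the counts were 19 higher and 8 lower. BMP7 and GREM1 were not tested, the ligand gene BMP7 with 2 counts over the sh1 libraries and 2 over the shNC libraries, the BMP antagonist gene GREM1 with 4 over the sh1 libraries and 2 over the shNC libraries, so a difference in either was not detectable at this depth.

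**Figure D1:**
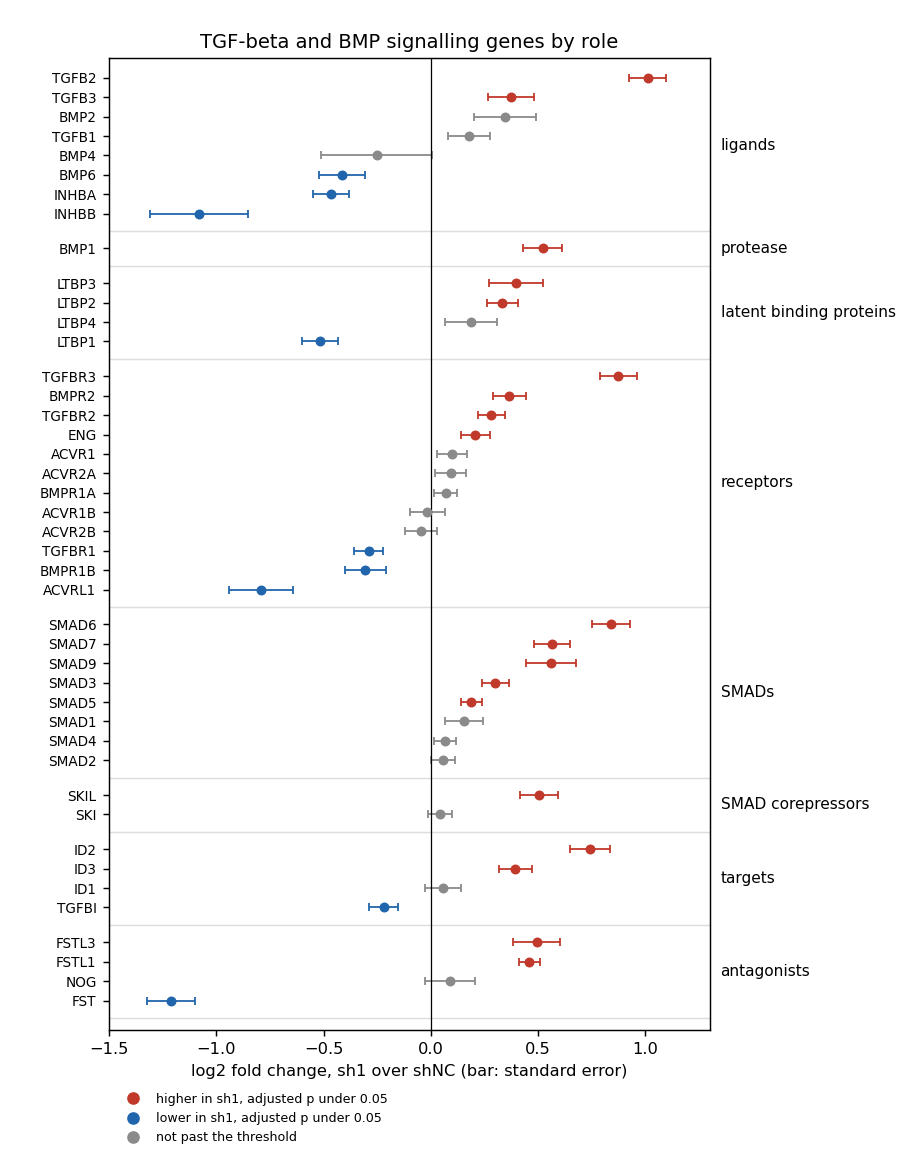
Log2 fold change, sh1 over shNC, with its standard error for each of the 43 tested genes, grouped by role. Colour marks the call at an adjusted p under 0.05 (red for higher in sh1, blue for lower, grey for genes that did not pass), and the values run from -1.21 for FST to 1.01 for TGFB2.

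Promoter sequence is shown for 5 genes: SMAD6, the only one of those searched with the palindromic SMAD site, TGFB2 and FST, the largest rise and the largest fall, and BMPR2 and INHBA, a receptor that rose and a ligand subunit that fell, both with the core letters that RUNX proteins bind. Windows of 300 bases, 250 before and 50 after each annotated start (RefSeq, GRCh38.p14), were found for 39 of the 45 genes, 71 windows in all. They were searched on both strands for the RUNX core TGTGGT, the SMAD box CAGACA and the palindrome GTCTAGAC, letters that do not contain one another. Other forms of the RUNX core were not searched, and only these exact letters were matched. The 120 bases before a start (1 of several for some genes) are printed 5′ to 3′ on the gene's strand, in lower case with matches to any of these in capitals.
SMAD6 (chr15:66702116-66702235, plus strand): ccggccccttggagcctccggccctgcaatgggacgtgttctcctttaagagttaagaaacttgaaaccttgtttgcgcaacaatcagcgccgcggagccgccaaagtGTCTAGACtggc
TGFB2 (chr1:218345216-218345335, plus strand): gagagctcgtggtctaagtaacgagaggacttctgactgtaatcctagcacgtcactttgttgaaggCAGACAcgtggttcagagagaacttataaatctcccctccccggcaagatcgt
BMPR2 (chr2:202376207-202376326, plus strand): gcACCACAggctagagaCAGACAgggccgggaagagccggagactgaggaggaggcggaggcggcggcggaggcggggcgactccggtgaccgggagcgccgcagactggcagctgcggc
INHBA (chr7:41703091-41703210, minus strand): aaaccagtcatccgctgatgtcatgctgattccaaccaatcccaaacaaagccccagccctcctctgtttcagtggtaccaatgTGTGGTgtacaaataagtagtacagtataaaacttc
FST (chr5:53480509-53480628, plus strand): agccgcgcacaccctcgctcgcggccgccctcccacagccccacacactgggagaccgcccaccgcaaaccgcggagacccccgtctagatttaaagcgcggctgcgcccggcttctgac
The palindrome began 12 bases before the start of SMAD6, and 0.202% of all 35116 windows hold it. The RUNX core was in 11 of the 71 windows (15.5%), beside 13.1% of all windows, and the SMAD box in 15 (21.1%), beside 16.9%. Windows with the RUNX core belonged to genes of every outcome: BMPR2, ENG, SMAD3, SMAD5 and TGFB3, which rose, BMPR1B, INHBA and LTBP1, which fell, and ACVR1, BMP4 and SMAD4, which did not pass. The counts give no measurement of binding at these letters.

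Levels between genes are compared per gene length, as the authors' FPKM (fragments per kilobase of gene length, scaled to library size). TGFBR2, the type II receptor of TGF-beta, had the highest level of the 45 genes in both groups, at 100.4 ± 4.46 FPKM in sh1 and 81.7 ± 9.43 FPKM in shNC (SD, n = 6 each). ID3 and ID1, classical BMP target genes, ranked next in both groups, ID3 at 68.7 ± 8.77 FPKM in sh1 and 51.8 ± 5.65 FPKM in shNC and ID1 at 51.3 ± 5.37 FPKM in sh1 and 48.8 ± 5.97 FPKM in shNC. Next in sh1 were the corepressor gene SKIL, SMAD3 and TGFBI, and in shNC TGFBI, SMAD3 and SKIL. TGFB2 held rank 12 in sh1 and rank 20 in shNC, and FST held rank 22 in sh1 and rank 13 in shNC. The neighbours ACVR1B, at 6.27 ± 0.469 FPKM in sh1 and 6.29 ± 0.890 FPKM in shNC, and NOG, at 5.97 ± 0.379 FPKM in sh1 and 5.55 ± 1.11 FPKM in shNC, did not differ beyond their spread. INHBB, ACVRL1, BMP4, BMP7 and GREM1 were the 5 genes below 1 FPKM in both groups. The length behind the FPKM of SMAD2 is 36366 bases, far above the 9113 bases of SMAD3, which enters its level of 3.48 ± 0.260 FPKM in sh1 and 3.31 ± 0.220 FPKM in shNC. Per library size alone, SMAD2 was at 126 ± 9.24 CPM in sh1 and 121 ± 7.96 CPM in shNC, above SMAD4 at 74.8 ± 4.05 CPM in sh1 and 71.4 ± 3.44 CPM in shNC.

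**Figure D2:**
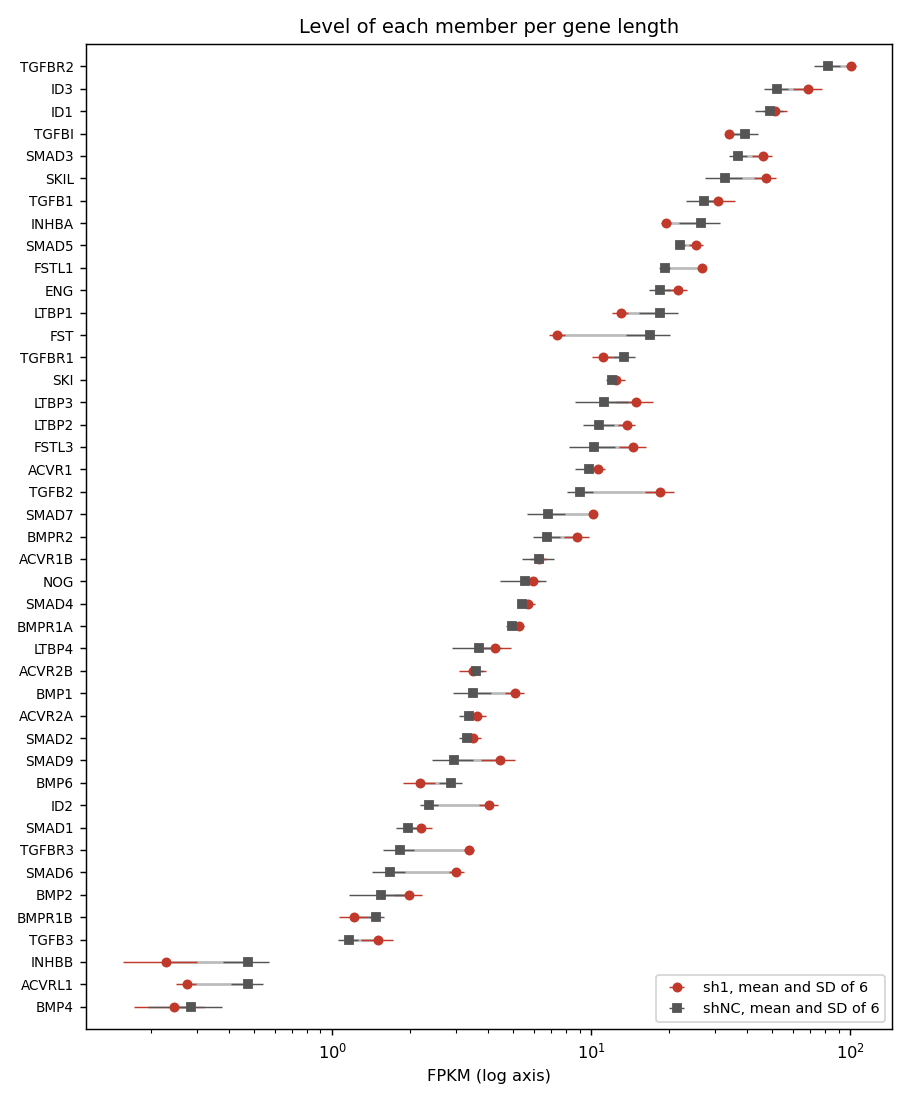
Mean FPKM of 43 of the genes in sh1 (red circles) and shNC (grey squares) on a log axis, with the SD of 6 libraries, ordered by the shNC level; BMP7 and GREM1, both near 0, are left out. TGFBR2 is highest at 100.4 FPKM in sh1 and 81.7 in shNC, and the widest gap among the genes shown is that of FST.

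Among the TGF-beta ligands, TGFB2 rose the most and the other isoforms moved less. TGFB2 (ENSG00000092969, chromosome 1, 218345336 to 218444619, plus strand, GRCh38) was at 96.1, 87.6, 74.1, 98.2, 106 and 107 CPM in sh1 replicates 1 to 6, against 49.9, 44.2, 49.5, 55.0, 41.9 and 41.9 CPM in shNC replicates 1 to 6. The lowest sh1 library, replicate 3, lay above the highest shNC library. The fold change was 2.01 (log2 fold change 1.01, standard error 0.087, adjusted p = 3.4e-07 from edgeR), and without any one library the log2 fold change stayed between 0.98 and 1.08. TGFB3 also rose (7.38 ± 1.04 CPM in sh1 and 5.72 ± 0.510 CPM in shNC, SD, n = 6 each; log2 fold change 0.37, standard error 0.11, adjusted p = 0.017), with overlapping libraries. TGFB1, the isoform with the most transcript, was at 86.0 to 125 CPM (median 94.3) in the sh1 libraries, against 67.3 to 96.9 CPM (median 92.7) in the shNC libraries, and did not pass (log2 fold change 0.18, standard error 0.099, adjusted p = 0.20). TGFB1 shares 215 exon bases with HNRNPUL1 and TGFB2 701 with TGFB2-AS1, each on the opposite strand, and the library kit does not mark strand. TGFB2-AS1 had 781 counts over all 12 libraries, beside 13487 of TGFB2, while HNRNPUL1 had 56867, beside 18225 of TGFB1. The printed promoter stretch of TGFB2 holds 1 SMAD box and no RUNX core in the searched form TGTGGT.

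The make-up of the TGF-beta transcripts differed too. TGFB2 took 31.6 to 40.5% of the summed FPKM of TGFB1, TGFB2 and TGFB3 in the sh1 libraries and 20.8 to 27.2% in the shNC libraries, without overlap. Within sh1, this share was 31.6%, 31.9% and 34.1% in replicates 1 to 3 and 40.2%, 40.1% and 40.5% in replicates 4 to 6, and no label names a batch for these libraries. The summed FPKM of the 3 isoforms was 50.9 ± 5.64 in sh1 and 37.3 ± 4.62 in shNC (SD, n = 6 each). TGFB1 held the larger share in every library, from 56.3% in sh1 replicate 6 upwards.

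**Figure D3:**
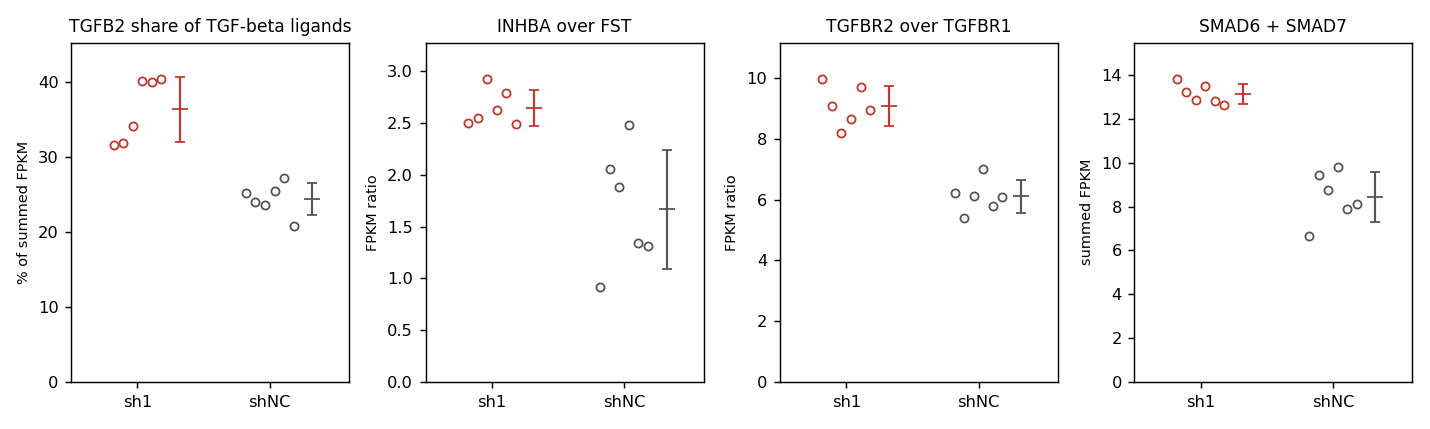
From left to right, the share of TGFB2 in the summed FPKM of the 3 TGF-beta ligands, the FPKM ratio of INHBA to FST, the FPKM ratio of TGFBR2 to TGFBR1 and the summed FPKM of SMAD6 and SMAD7. Points are libraries in replicate order, bars give the mean and SD of 6, and in each panel all sh1 libraries lie above all shNC libraries, narrowly so for INHBA over FST (lowest sh1 ratio 2.49, highest shNC ratio 2.48).

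Both activin subunit genes among the signalling genes, INHBA and INHBB, fell. INHBA, which encodes the subunit of activin A, fell, averaging 161 ± 6.93 CPM in sh1 and 222 ± 37.1 CPM in shNC (SD, n = 6 each; log2 fold change -0.47, standard error 0.086, adjusted p = 0.00067 from edgeR). Its sh1 libraries spanned 153 to 171 CPM, and shNC replicate 1 (171 CPM) touched the top of that range while the other shNC libraries were higher, up to 269.6 CPM. Its printed promoter stretch holds 1 RUNX core. INHBB, the subunit of activin B, had 7 to 15 counts in sh1 libraries and 21 to 33 in shNC libraries, and it passed the count filter through the shNC group. It was at 0.588, 0.926, 1.06, 0.735, 0.446 and 0.608 CPM in sh1 replicates 1 to 6, against 1.90, 1.11, 1.15, 1.68, 1.74 and 1.63 CPM in shNC replicates 1 to 6, and the groups did not overlap (log2 fold change -1.08, standard error 0.23, adjusted p = 0.0020). On the log2(FPKM + 1) scale, which understates changes of such low genes, its difference was -0.26. Other activin subunit genes are in the list of further pathway genes. Of these, INHBE did not pass (14.3 ± 1.61 CPM in sh1 and 14.8 ± 5.99 CPM in shNC; log2 fold change -0.038, standard error 0.19, adjusted p = 0.91 from edgeR). INHBC, with 28 counts over the sh1 libraries and 35 over the shNC libraries, was not tested. INHBE and INHBC were named after their values were seen.

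The BMP ligands were at low levels in both groups, and BMP6 was the only one of those tested to pass. BMP6 fell, at 5.07 to 6.98 CPM (median 6.04) in the sh1 libraries, against 7.20 to 8.999 CPM (median 8.06) in the shNC libraries, without overlap (log2 fold change -0.42, standard error 0.11, adjusted p = 0.0086). BMP2, an osteoinductive ligand, was at 7.10 ± 0.873 CPM in sh1 and 5.56 ± 1.33 CPM in shNC and did not pass (log2 fold change 0.34, standard error 0.15, adjusted p = 0.090). It passed without shNC replicate 2, its highest shNC library at 7.47 CPM (log2 fold change 0.46, adjusted p = 0.027). BMP4 was at 0.754 ± 0.228 CPM in sh1 and 0.883 ± 0.279 CPM in shNC (log2 fold change -0.25, standard error 0.26, adjusted p = 0.51). BMP1, despite its name, encodes a metalloprotease that trims procollagen and also releases latent TGF-beta. It rose, at 34.0 to 42.6 CPM (median 36.6) in the sh1 libraries, against 22.5 to 32.9 CPM (median 25.7) in the shNC libraries, without overlap (log2 fold change 0.52, standard error 0.089, adjusted p = 0.00035 from edgeR).

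The latent TGF-beta binding proteins, which tether latent TGF-beta to the matrix (LTBP2 does not bind it), changed in both directions. LTBP1 fell, at 100.4, 91.6, 85.8, 89.7, 102 and 99.2 CPM in sh1 replicates 1 to 6, against 115, 133, 159.7, 163, 115 and 129 CPM in shNC replicates 1 to 6, without overlap (log2 fold change -0.52, standard error 0.084, adjusted p = 0.00020 from edgeR). LTBP2 rose (124 ± 9.30 CPM in sh1 and 98.3 ± 11.8 CPM in shNC; log2 fold change 0.33, standard error 0.071, adjusted p = 0.0022), and so did LTBP3 (153 ± 25.4 CPM in sh1 and 116 ± 25.4 CPM in shNC; log2 fold change 0.40, standard error 0.13, adjusted p = 0.027), both with overlapping libraries. The LTBP3 call depended on single libraries. Without sh1 replicate 1, which held its highest value (198 CPM), the adjusted p was 0.065, and it was 0.053 without shNC replicate 1, 0.053 without shNC replicate 5 and 0.053 without shNC replicate 6. LTBP4 did not pass (34.2 ± 5.42 CPM in sh1 and 30.2 ± 6.03 CPM in shNC; log2 fold change 0.19, standard error 0.12, adjusted p = 0.28). In shNC, replicates 3 and 4 had the 2 highest values of LTBP1, LTBP2 and LTBP3. LTBP1 made up 25.5 to 30.4% of the summed FPKM of these 4 genes in sh1 libraries and 40.6 to 43.1% in shNC libraries.

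**Figure D4:**
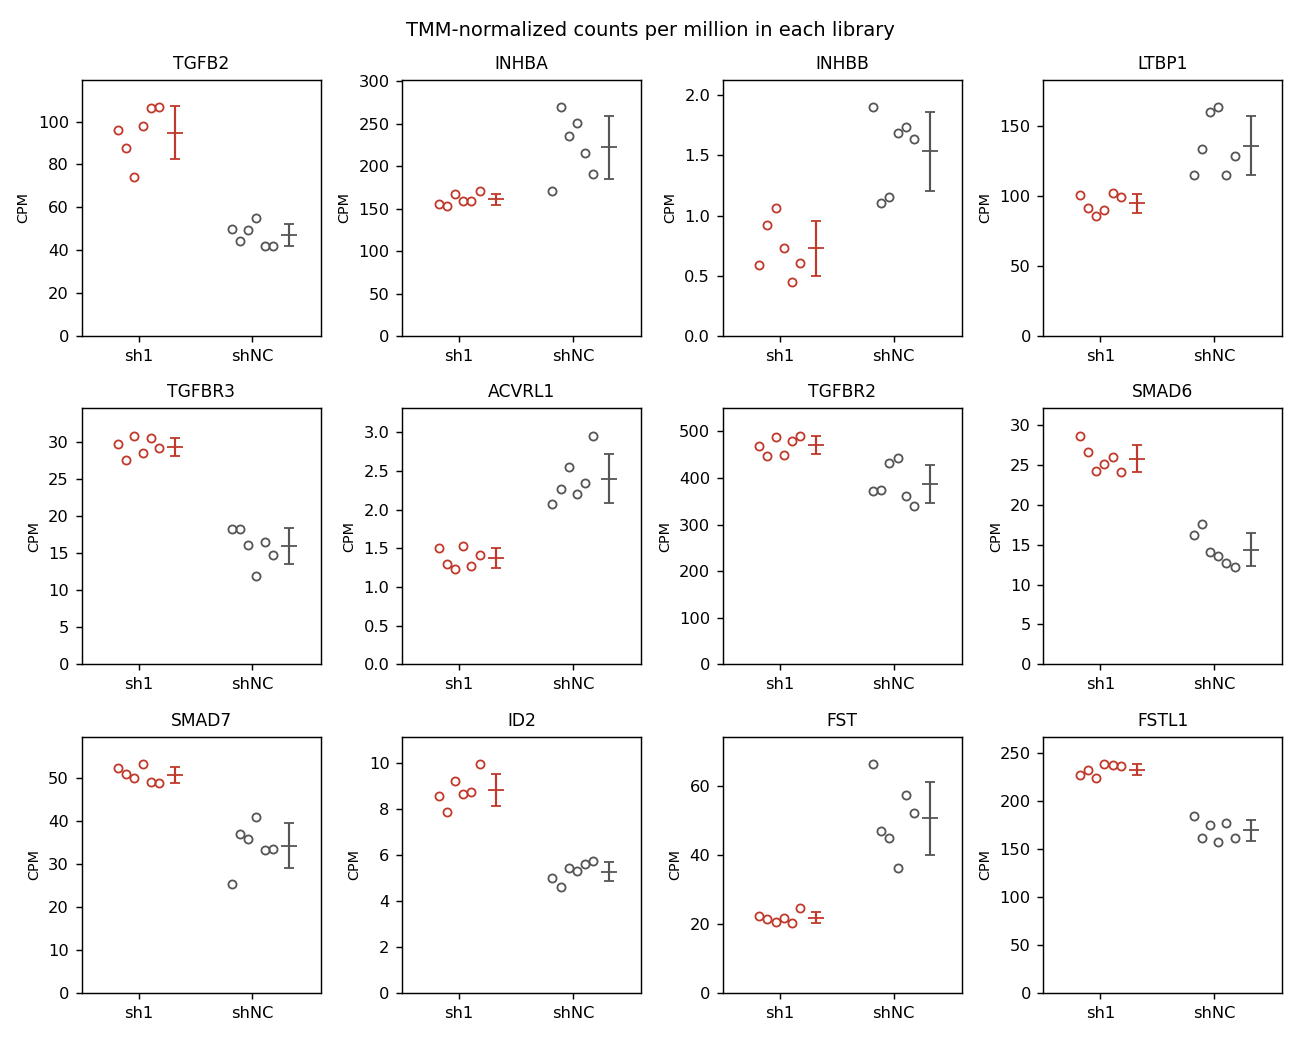
TMM-normalized CPM of 12 of the genes in each library, sh1 in red and shNC in grey, points in replicate order, and a bar for the mean with its SD over 6 libraries. The groups do not overlap for 11 of them, and for INHBA shNC replicate 1 lies at the level of the sh1 libraries.

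Of the 12 receptor genes, 4 rose, 3 fell and 5 did not pass (58.3% called, beside 26.1% of all genes tested). The 3 that fell were type I receptors, and the 4 that rose were 2 type II receptors and 2 co-receptors. The calls of the type I receptor BMPR1B and the co-receptor ENG were lost in some alternative fits. TGFBR3 (betaglycan), a co-receptor that presents TGF-beta2 to the signalling receptors, rose the most of the 12, at 29.7, 27.6, 30.8, 28.5, 30.5 and 29.1 CPM in sh1 replicates 1 to 6, against 18.3, 18.3, 16.1, 11.97, 16.4 and 14.8 CPM in shNC replicates 1 to 6, without overlap (log2 fold change 0.87, standard error 0.087, adjusted p = 1.4e-06 from edgeR). TGFBR2 rose, at 469.6, 447, 489, 449, 479 and 491 CPM in sh1 replicates 1 to 6, against 372, 375, 432, 444, 362 and 339.9 CPM in shNC replicates 1 to 6 (log2 fold change 0.28, standard error 0.062, adjusted p = 0.0029), where the highest shNC library lay just under the lowest sh1 library. BMPR2, the type II receptor of BMPs, rose as well (105 ± 10.9 CPM in sh1 and 81.1 ± 9.05 CPM in shNC; log2 fold change 0.37, standard error 0.077, adjusted p = 0.0019), with shNC replicate 3 (96.1 CPM) inside the sh1 range, and its printed promoter stretch holds 1 RUNX core and 1 SMAD box. The activin type II receptors ACVR2A (log2 fold change 0.092, standard error 0.072, adjusted p = 0.38) and ACVR2B (log2 fold change -0.046, standard error 0.073, adjusted p = 0.68) did not pass.

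TGFBR1, the type I partner of TGFBR2, fell, at 68.5 to 86.9 CPM (median 73.6) in the sh1 libraries, against 81.0 to 102 CPM (median 91.4) in the shNC libraries, with overlap (log2 fold change -0.29, standard error 0.067, adjusted p = 0.0040 from edgeR). The FPKM ratio of TGFBR2 to TGFBR1 was 8.19 to 9.98 in sh1 libraries and 5.39 to 7.03 in shNC libraries, without overlap. BMPR1B, a type I receptor of BMPs, fell slightly (7.65 ± 0.999 CPM in sh1 and 9.43 ± 0.720 CPM in shNC; log2 fold change -0.31, standard error 0.097, adjusted p = 0.027), and its call was lost in 10 of 22 alternative fits, among them those without sh1 replicate 1, 2, 5 or 6 or shNC replicate 2, 3 or 5 (adjusted p 0.052 to 0.078). The other type I receptors ACVR1B, ACVR1 and BMPR1A had log2 fold changes of -0.017, 0.10 and 0.069 with standard errors of 0.055 to 0.080 and did not pass.

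ACVRL1 (ALK1) and ENG (endoglin), known for their part in endothelial TGF-beta and BMP9 signalling, moved in opposite directions. ACVRL1 was low and fell, at 1.24 to 1.53 CPM (median 1.36) in the sh1 libraries, against 2.07 to 2.96 CPM (median 2.30) in the shNC libraries, without overlap (log2 fold change -0.79, standard error 0.15, adjusted p = 0.00078 from edgeR). ENG was abundant and rose, averaging 84.3 ± 7.64 CPM in sh1 and 73.1 ± 6.17 CPM in shNC (SD, n = 6 each; log2 fold change 0.21, standard error 0.067, adjusted p = 0.030), but sh1 replicate 4 (72.1 CPM) lay inside the shNC range, and the call was lost without sh1 replicate 1 (adjusted p = 0.058), shNC replicate 1 (0.052), shNC replicate 2 (0.059) or shNC replicate 5 (0.064). Of 8 endothelial markers, 4 had enough counts to be tested and 2 of them fell, beside 13.3% of all genes tested. They were the receptors TIE1 (103 ± 9.26 CPM in sh1 and 151 ± 15.3 CPM in shNC) and KDR (0.712 ± 0.298 CPM in sh1 and 1.53 ± 0.331 CPM in shNC). KDR had only 63 counts over the sh1 libraries and 160 over the shNC libraries. It met the count filter through shNC, the group where it was higher. The 8 markers summed to 96.4 to 126 CPM in sh1 libraries and 135 to 172 in shNC libraries, nearly all of it TIE1, while ERG and EMCN each had at most 2 counts over the libraries of either group. Their part in the ACVRL1 and ENG results was not tested.

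Of the 8 SMAD genes, 5 rose, none fell at the threshold and 3 did not pass (62.5% called, beside 26.1% of all genes tested). SMAD6 rose the most, and SMAD7 and SMAD9 followed with nearly equal fold changes. SMAD6, which mainly restrains BMP receptors, was at 28.6, 26.6, 24.2, 25.0, 25.9 and 24.1 CPM in sh1 replicates 1 to 6, against 16.2, 17.6, 14.02, 13.5, 12.7 and 12.2 CPM in shNC replicates 1 to 6 (log2 fold change 0.84, standard error 0.088, adjusted p = 2.4e-06 from edgeR). SMAD7, which restrains TGF-beta receptors, was at 48.9 to 53.3 CPM (median 50.5) in the sh1 libraries, against 25.5 to 41.0 CPM (median 34.7) in the shNC libraries (log2 fold change 0.57, standard error 0.084, adjusted p = 8.7e-05). The groups did not overlap for either gene, and the lowest SMAD7 value was that of shNC replicate 1, without which the log2 fold change was 0.49. Their summed FPKM was 13.1 ± 0.460 in sh1 and 8.45 ± 1.14 in shNC (SD, n = 6 each). The FPKM ratio of SMAD7 to SMAD6 was 3.12 to 3.62 in sh1 and 2.68 to 5.15 in shNC, with overlap. The printed promoter stretch of SMAD6 is the one with the palindromic SMAD site.

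Of the receptor-activated SMADs, 3 of 5 rose, beside 12.8% of all genes tested. SMAD3, the most abundant SMAD transcript, rose, averaging 417 ± 37.4 CPM in sh1 and 339 ± 24.9 CPM in shNC (SD, n = 6 each; log2 fold change 0.30, standard error 0.064, adjusted p = 0.0021 from edgeR), with sh1 replicate 3 (356 CPM) inside the shNC range. SMAD5 rose by a small amount (228 ± 14.2 CPM in sh1 and 201 ± 8.46 CPM in shNC; log2 fold change 0.19, standard error 0.050, adjusted p = 0.0099) and SMAD9 by more from a lower level (25.2 ± 3.78 CPM in sh1 and 17.1 ± 2.97 CPM in shNC; log2 fold change 0.56, standard error 0.12, adjusted p = 0.0018), each with overlap. SMAD1 (log2 fold change 0.15, standard error 0.088, adjusted p = 0.21), SMAD2 (log2 fold change 0.056, standard error 0.057, adjusted p = 0.50) and the common partner SMAD4 (log2 fold change 0.064, standard error 0.051, adjusted p = 0.38) did not pass. SKI and SKIL encode nuclear corepressors that bind SMADs. SKIL (SnoN), itself induced by TGF-beta, rose, at 343, 331, 330.4, 389, 385 and 411 CPM in sh1 replicates 1 to 6, against 222, 271, 298, 297, 248 and 206 CPM in shNC replicates 1 to 6, without overlap (log2 fold change 0.50, standard error 0.088, adjusted p = 0.00039). Within sh1, replicates 4 to 6 were all above replicates 1 to 3. SKI did not pass (75.8 ± 6.01 CPM in sh1 and 73.5 ± 2.71 CPM in shNC; log2 fold change 0.044, standard error 0.055, adjusted p = 0.60).

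The ID genes encode inhibitors of bHLH transcription factors and are direct BMP targets. ID2 rose, at 8.56, 7.84, 9.19, 8.63, 8.73 and 9.94 CPM in sh1 replicates 1 to 6, against 5.01, 4.58, 5.41, 5.31, 5.58 and 5.72 CPM in shNC replicates 1 to 6, without overlap (log2 fold change 0.74, standard error 0.093, adjusted p = 1.6e-05 from edgeR). ID3 rose (123 ± 15.8 CPM in sh1 and 93.8 ± 8.96 CPM in shNC; log2 fold change 0.39, standard error 0.078, adjusted p = 0.0012), with sh1 replicate 3 (107 CPM) below the highest shNC library (109 CPM). ID1, the one most often used as a BMP readout, was at 56.1 to 74.3 CPM (median 62.5) in the sh1 libraries, against 49.3 to 71.9 CPM (median 62.1) in the shNC libraries, and did not pass (log2 fold change 0.058, standard error 0.084, adjusted p = 0.65). ID2 remained a small part of the ID transcripts, with 2.61 to 3.93% of the summed FPKM of ID1, ID2 and ID3 in sh1 libraries and 1.94 to 2.81% in shNC libraries. TGFBI, a secreted matrix protein named for its induction by TGF-beta, fell slightly (265 ± 11.8 CPM in sh1 and 309 ± 36.2 CPM in shNC; log2 fold change -0.22, standard error 0.068, adjusted p = 0.024). Its call was lost in 8 of 22 alternative fits, including those without sh1 replicate 1, 2, 3 or 6 or shNC replicate 3 or 4 (adjusted p 0.051 to 0.068).

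The largest fall among the 43 genes was that of FST (follistatin), a secreted protein that binds and neutralizes activins (ENSG00000134363, chromosome 5, 53480626 to 53487134, plus strand, GRCh38). FST was at 22.2, 21.5, 20.5, 21.7, 20.4 and 24.5 CPM in sh1 replicates 1 to 6, against 66.3, 46.8, 44.8, 36.1, 57.4 and 52.1 CPM in shNC replicates 1 to 6. The sh1 libraries lay close together and the shNC libraries were spread more widely, with replicate 1 highest and replicate 4 lowest, and the groups did not overlap (log2 fold change -1.21, standard error 0.11, adjusted p = 6.1e-07 from edgeR). None of the searched letters is in the printed promoter stretch of FST, but other forms of the RUNX core were not searched. FSTL3, a related activin binder, rose instead (44.4 ± 5.54 CPM in sh1 and 31.6 ± 5.93 CPM in shNC, SD, n = 6 each; log2 fold change 0.49, standard error 0.11, adjusted p = 0.0028), with sh1 replicate 3 (34.9 CPM) inside the shNC range. FSTL1, a follistatin-like matrix glycoprotein, rose, at 224 to 238 CPM (median 234) in the sh1 libraries, against 157 to 184 CPM (median 168) in the shNC libraries, without overlap and with the smallest standard error of the 43 genes (log2 fold change 0.46, standard error 0.048, adjusted p = 2.3e-06). The BMP antagonist NOG (noggin) did not pass (11.3 ± 0.720 CPM in sh1 and 10.6 ± 2.14 CPM in shNC; log2 fold change 0.089, standard error 0.12, adjusted p = 0.62).

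By fold change, INHBA fell less than FST, an inhibitor of the activin it forms. The FPKM ratio of INHBA to FST was 2.65 ± 0.176 in sh1 and 1.67 ± 0.575 in shNC (SD, n = 6 each). In shNC it spanned 0.921 in replicate 1 to 2.48 in replicate 4, and the sh1 libraries lay between 2.49 and 2.92, so the gap between the groups was far narrower than the spread within shNC.

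Genes known as TGF-beta targets in other cells were mostly higher in sh1 where they passed. Of 30 such genes, 27 were tested, 15 rose, 2 fell and 10 did not pass, with a median log2 fold change of 0.39 beside -0.0035 over all genes (12.8% of all genes rose and 13.3% fell). Of these 30, 5 are among the 45 genes above, and over the others 12 of 22 rose and 1 fell. This list, like the BMP target and further pathway lists below, was chosen with earlier results of these data known. Its counts are therefore not an unbiased test. The actin-binding proteins TAGLN (log2 fold change 2.05, standard error 0.11, adjusted p = 9.7e-10 from edgeR) and TPM1 (log2 fold change 0.92, standard error 0.055, adjusted p = 3.5e-09) had the smallest p-values. The smooth muscle actin gene ACTA2 rose (log2 fold change 0.83), and so did the collagen gene COL1A1 (1.49). The 2 that fell were TGFBI and the cytokine gene LIF (log2 fold change -0.47), which was named after its value was seen. Among the 10 that did not pass were CCN2 (log2 fold change -0.018), PMEPA1 (-0.23) and JUNB (0.0020). The 10 ran from -0.36 for IL11 to 0.64 for BIK, and these genes too were named after their values were seen. TAGLN, ACTA2 and MYL9 also mark smooth muscle and rose, and the 8 smooth muscle markers summed to 67.9 to 81.1 CPM in sh1 libraries and 29.7 to 36.3 in shNC libraries. Of the 5 tested, these 3 were higher, beside 12.8% of all genes tested, and TAGLN and ACTA2 are also counted among the targets. MYH11, the defining myosin of that cell type, was at 1.83 ± 0.386 CPM in sh1 and 1.61 ± 0.558 CPM in shNC and did not pass. RGS5 did not pass either (3.17 ± 0.250 CPM in sh1 and 2.65 ± 0.392 CPM in shNC). The part of these markers in the target result was not tested.

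Known BMP targets moved in both directions. Of 21 genes, 18 were tested, 8 rose, 4 fell and 6 did not pass (66.7% called, beside 26.1% of all genes), with a median log2 fold change of 0.11. Among the 11 tested that are not of the 45 genes, RUNX2 included, 3 rose and 4 fell, with DLX3, limited as given below, among the 3. The transcription factor gene ATOH8 rose from a low level (4.16 ± 0.353 CPM in sh1 and 1.66 ± 0.429 CPM in shNC, SD, n = 6 each; log2 fold change 1.31, standard error 0.16, adjusted p = 1.2e-05 from edgeR). DLX3, another transcription factor gene, was at 1.24 ± 0.209 CPM in sh1 and 0.306 ± 0.195 CPM in shNC and was called higher, but it passed the count filter only through the sh1 group, where it had 111 counts in all, against 33 in shNC. The falls were those of RUNX2 itself, the gene the shRNA targets, and of the transcription factor genes HEY1 (log2 fold change -0.62), MSX1 (-0.38) and GATA3 (-0.38), the last 3 named after their values were seen. A list of 83 further genes of the pathway was called at about the share of all genes. Of these, 49 were tested, 7 rose, 6 fell and 36 did not pass (26.5% called, beside 26.1% of all genes), with a median of 0.0083. ITGAV, the integrin chain that can release latent TGF-beta (388 ± 44.2 CPM in sh1 and 257 ± 13.0 CPM in shNC; log2 fold change 0.60, standard error 0.067, adjusted p = 5.7e-06), and FBN1, the microfibril protein that anchors latent complexes (65.7 ± 7.85 CPM in sh1 and 39.2 ± 3.45 CPM in shNC; log2 fold change 0.74, standard error 0.079, adjusted p = 2.7e-06), rose without overlap. NRROS, which tethers latent TGF-beta1 on myeloid cells, was low, at 0.747 ± 0.347 CPM in sh1 and 1.88 ± 0.638 CPM in shNC, and was called lower, but it met the count filter through the shNC group. Its shNC replicate 1 (0.691 CPM) lay inside the sh1 range. The integrin chain gene ITGB8 (log2 fold change -0.47) and THBS1 (-0.25), also among the 6 that fell, were named after their values were seen.

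**Figure D5:**
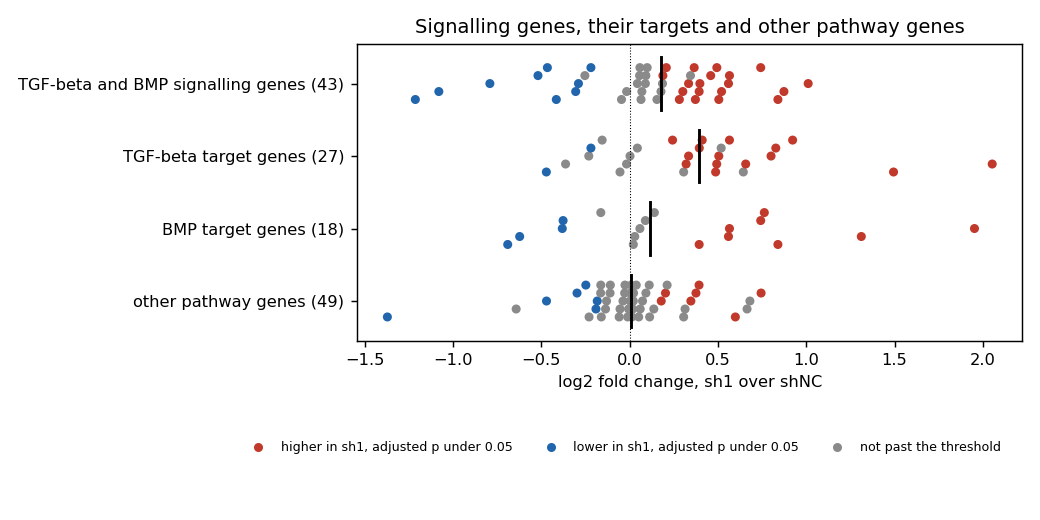
Each point is the log2 fold change (sh1 over shNC) of a tested gene from the 45 signalling genes, from 2 target lists or from the other pathway genes, with the number tested in brackets. Red marks genes higher and blue genes lower in sh1 by the test, grey the rest, and black lines mark the medians, 0.18, 0.39, 0.11 and 0.0083 from top to bottom. Some genes stand in more than 1 list.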

How the data were processed

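Polyadenylated RNA of 12 SJSA-1 libraries was sequenced as read pairs. The authors aligned the reads with HISAT2 to GRCh38 (Ensembl 87) and deposited gene counts from featureCounts and FPKM values made from them. How featureCounts treated reads in overlapping genes, and the versions of HISAT2 and featureCounts, were not found in the sources. Counts divided by DESeq2 size factors were also deposited and were not used. Fold changes came from the deposited counts with edgeR 4.0.16 in R 4.3.3 (filterByExpr, TMM, glmQLFit and glmQLFTest, fitted over all genes, sh1 against shNC), with calls at an adjusted p under 0.05. A standard error is the size of the log2 fold change over the root of its F statistic. The deposited FPKM values served to compare levels between genes.

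All genes of the list are described, those with the largest change in a role by their value in each library and others by range or mean. Genes of the target and pathway lists were named if called and changed by 0.5 or more on the log2 scale, up to 6 a list in order of p-value. A gene that this rule picks is not reported here. The members and lists were chosen with earlier results of these data known. Of the 45 genes, 16 share exon bases with another counted gene on the opposite strand (GENCODE 44), which an unstranded kit cannot separate. The test was checked on simulated data. Alternatives were other scalings, filters, DESeq2 1.42.0, robust dispersion, a block for the replicate number, limma 3.58.1 on log2(FPKM + 1) or log2(FPKM + 0.1), and leaving out each library.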

Additional observations from a re-analysis of the deposited data

Results flagged for a closer look

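These values each lay far from the other libraries of their group, relative to the range of that group. Chance gives such a value in about 1 of 20 groups. In 90 checks of the signalling genes chance would give 4.5 such values and 2 were found. BMP7 was at 0.129 CPM in shNC replicate 4, which is 2 counts, and at 0 in the other shNC libraries. SMAD4 was at 64.8 CPM in shNC replicate 6 and at 71.3 to 74.7 in the other shNC libraries. The library sh1 replicate 3 stood apart in its total count (11239638, against 14689309 to 16346022 in the other sh1 libraries), in the genes with a count (27392, against 28612 to 28873) and in the share of counts in rows with no Ensembl number (1.23%, against 0.468% to 0.531%). Without it, 19 of the signalling genes were higher and 8 lower.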

How the results depend on the processing

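Over 22 alternatives, 12 of which leave out 1 library each, 24 of the 28 called signalling genes kept their call wherever they were tested, and none of the 28 changed sign. LTBP3, BMPR1B, ENG and TGFBI lost the call under some alternatives, LTBP3 with robust dispersion (adjusted p = 0.080), TGFBI with limma on log2(FPKM + 1) (adjusted p = 0.055), and BMP2 gained one. The numbers of signalling genes called ranged from 17 to 19 higher and from 7 to 9 lower. With DESeq2 they were 19 and 9. The TGF-beta targets that fell were 1 with limma on log2(FPKM + 1) and 1 with limma on log2(FPKM + 0.1), and 1 to 3 when a library was left out. The BMP targets that fell were 2 to 4 when a library was left out, with 2 without sh1 replicate 4. The sign of the ACVR1B log2 fold change turned to 0.0026 with limma on log2(FPKM + 1) and 0.0042 with limma on log2(FPKM + 0.1), and it ranged from -0.068 to 0.038 without single libraries, as ACVR2B did from -0.095 to 0.0044. The cause was not tested. No alternative moved the median of all genes by 0.1. Libraries with the same number did not deviate together (correlations from -0.16 to 0.033), so no pairing by replicate number was detected. A pairing that left no shared deviation would not be seen in this way. With the replicate number as a block, 18 signalling genes were higher and 8 lower, BMPR1B (adjusted p = 0.056) and ENG (adjusted p = 0.069) not passing, and the calls over all genes were 1680 higher and 1701 lower, against 2108 and 2194. Depth limits BMP7, GREM1, BMP4 and INHBB, which had few counts per library.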
